A study of Mus musculus with 2 samples.

Results

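The replication-dependent histone genes supply most of the histone protein that packages newly copied DNA. Taken here are the 67 protein-coding genes of the GENCODE M21 annotation whose symbols begin with Hist1h, Hist2h, Hist3h or Hist4h, of 21938 protein-coding genes in all. They comprise 6 genes of the linker histone H1 and 18 H2A, 18 H2B, 12 H3 and 13 H4 genes of the core histones. The measurement was DNase-seq, in which the nuclease DNase I cuts chromatin that is not covered by tightly bound nucleosomes, so that peaks of cutting mark accessible DNA and short protected stretches within them, called footprints, mark DNA covered by a bound protein. The tissue was labelled a layer of hippocampus, described as hippocampus and not named further, from female B6CASTF1/J mice aged 25 days. B6CASTF1/J mice are F1 hybrids of the laboratory strain C57BL/6J and the wild-derived CAST/EiJ, and whether CAST alleles align less well to the reference genome was not tested.

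There were 2 libraries, biological replicates 1 and 2 of 1 group, from separate tissue samples that share a donor entry. Whether they came from different animals is not stated, so the spread between them may be technical. With 1 group no difference between conditions can be tested, and all values below describe these libraries. The unit is the deposited signal of a peak, whose scaling is not stated, and open promoters are those with a peak of each replicate within 500 bp of an annotated start. All coordinates are on mm10, which is GRCm38.

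Histone genes of this kind are transcribed chiefly in S phase, when the coactivator NPAT, activated by cyclin E and CDK2, acts at them in nuclear bodies. Their mRNAs end in a stem-loop, bound by SLBP, in place of a poly(A) tail. They lie in clusters of near-identical copies, the largest of which is on chromosome 13 in the mouse, and neurons, which no longer divide, use replication-independent variants for most of their histone replacement.

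The tissue label was checked by the promoters of listed marker genes. All 5 neuronal markers, such as Snap25 and Syt1, and 4 of 6 markers of excitatory hippocampal neurons were open, whereas Prox1 and Slc17a7 each had a peak in 1 library. The neuronal set had a median CpG ratio of 0.483 and the excitatory set 0.694, in deciles of CpG ratio where 55.0% and 83.4% of all protein-coding genes were open. Of the astrocyte markers 1 of 4, Gfap, was open; Slc1a3, at 1.24, and Aldh1l1, at 0.676, had a peak in replicate 1 only, and 3 of 4 were open with the longer peak lists. None of the 12 markers of oligodendrocytes, microglia and endothelial cells was open, although 1 oligodendrocyte marker had a peak in replicate 1, and none of 5 genes of foreign tissues was. The glial and endothelial sets have median CpG ratios of 0.155 to 0.305, in deciles where 9.43% to 29.4% of all genes were open, so few open promoters among them are near the share of all genes. Replicate 1 had 61466 peaks and replicate 2 had 50379, with 236942 and 159538 footprints.

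Of the 67 histone genes, 52 (77.6%) had an open promoter, against 11890 (54.2%) of all protein-coding genes. Replicate 1 alone had a peak at 53 of them, against 60.2% of all genes, and replicate 2 alone at 55, against 54.8%. Hist1h3d had a peak in replicate 1 only, Hist1h4n, Hist1h2af and Hist1h2ab had one in replicate 2 only, and 11 members had none in either, which are called closed. In a tissue that mixes cell types, a promoter accessible in a few cells and one slightly accessible in many cannot be told apart. Histone promoters are rich in CpG, with a median observed to expected ratio of 0.879 in the 1001 bp windows against 0.552 in all genes, and CpG-rich promoters are often open. At a ratio of 0.6 or more, 51 of 64 members were open, against 86.9% of 10083 genes.

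By class, 12 of 13 H4 genes were open, as were 9 of 12 H3, 14 of 18 H2B, 13 of 18 H2A and 4 of 6 H1 genes. The median CpG ratios of the core histone classes, 0.837 to 0.901, lie in deciles where 91.1% to 92.0% of all protein-coding genes were open. That of H1, 0.676, lies in a decile with 83.4% open. The H4 share, 92.3%, is thus near the share of all genes, and the other classes had lower shares. Signal at the open members ranged from 0.934 to 11.2 in replicate 1 with a median of 2.54, and in replicate 2 from 0.503 to 4.27 with a median of 1.69. Over all open protein-coding genes the medians were 4.3 and 1.8. The H4 genes had the highest medians of the 5 classes in both libraries, 6.39 and 3.27, and H2B had the lowest in replicate 1, 2.01. In replicate 2 the lowest was that of H1, 1.42, and the medians of H2A, H2B and H3 lay between 1.57 and 1.7. The ranges of all classes overlapped in each library.

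**Figure D1:**
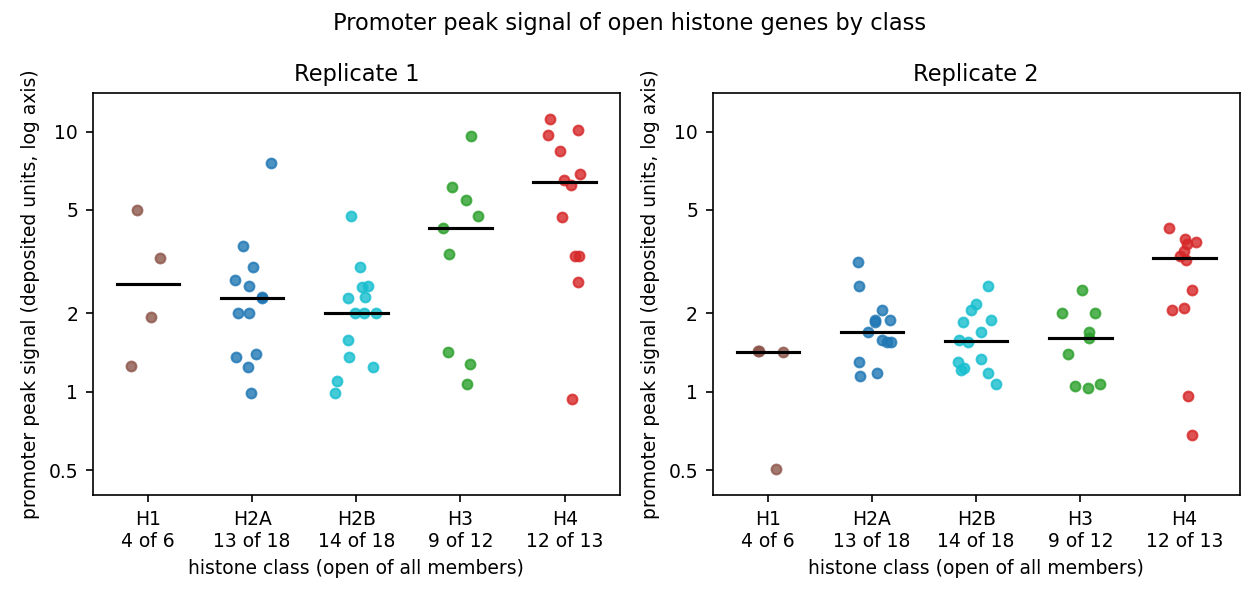
Promoter peak signal (deposited units, log axis) of each open histone gene in replicate 1 (left) and replicate 2 (right), by histone class, with the count of open members under each class. Points are genes and black bars are class medians; the H4 medians of 6.39 and 3.27 stand above those of the other classes, while the lowest H4 gene lies at 0.934 and 0.683.

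Histone H4 forms the nucleosome core together with H3. Its promoters carry an element called site II, whose core, GGTCCG, is recognised by the zinc finger factor HINFP, a partner of NPAT. The core was sought, on both strands, in the RefSeq promoters on GRCm38.p6, 250 bases before to 50 bases after the start, of the 62 members that have one. It was present in 11 of 12 H4 promoters (91.7%), in 1 H3 and 1 H2B promoter, and in no H1 or H2A promoter, against 10.6% of 17492 protein-coding promoters. Hist1h4a was the H4 gene without these letters. The 36 bases around the core follow for 7 H4 genes, since these carry the element that the class shares; capitals mark GGTCCG, and all are written 5′ to 3′ on the strand of the gene.
Hist1h4i, chr13:22041393-22041428, minus strand: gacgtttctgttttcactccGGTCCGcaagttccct
Hist1h4c, chr13:23698489-23698524, minus strand: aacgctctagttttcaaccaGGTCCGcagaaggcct
Hist4h4, chr6:136804448-136804483, minus strand: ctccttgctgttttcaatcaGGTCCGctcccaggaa
Hist1h4d, chr13:23581501-23581536, plus strand: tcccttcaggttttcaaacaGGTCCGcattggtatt
Hist1h4h, chr13:23531019-23531054, plus strand: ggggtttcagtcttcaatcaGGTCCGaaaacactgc
Hist1h4k, chr13:21750570-21750605, minus strand: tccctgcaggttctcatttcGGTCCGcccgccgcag
Hist1h4m, chr13:21811679-21811714, plus strand: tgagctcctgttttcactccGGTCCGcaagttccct

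The core began between position -47 and 7, with a median of -46, where -1 is the base before the RefSeq start and there is no position 0. Footprints covered part of it, 1 base or more, in 8 of the 10 open H4 promoters that hold it in replicate 1 and in 8 of them in replicate 2. In 6 promoters both libraries had one, and in all 10 at least 1 library did. Of 1575 places with these letters in open protein-coding promoters, H4 genes included, 26.7% and 19.2% overlapped a footprint. Within 60 bases before the start of other genes, which is nearer to where the H4 cores lie, the shares were 32.2% and 25.9% of 332 places, and 17.8% had a footprint in both libraries. The footprints over the core spanned 34 and 33 bases at Hist1h4i, 45 and 32 at Hist1h4c and 35 and 24 at Hist4h4. At Hist1h4k and Hist1h4f replicate 1 alone had a footprint there, and at Hist1h4h and Hist1h4m replicate 2 alone. Some of these only touched the core. The footprint at Hist1h4f began at -41, the last base of the core. That at Hist1h4m began at -53 and spanned 7 bases, so it reached only the first base of a core that begins at -47.

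**Figure D2:**
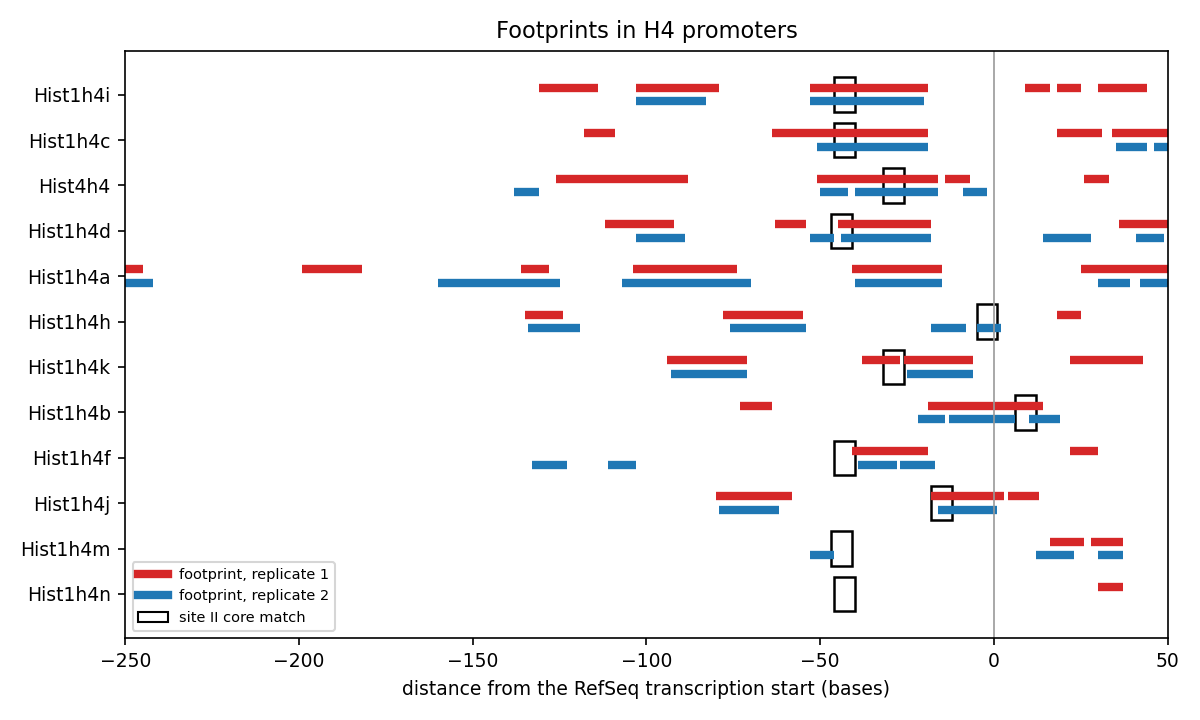
Footprints of replicate 1 (red) and replicate 2 (blue) in 12 H4 promoters, drawn by distance in bases from the RefSeq start, with open boxes at GGTCCG and genes ordered by mean signal rank. In 6 promoters footprints of both libraries touch the box, and Hist1h4a has footprints before its start but no box.

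H4 genes took the first 6 places when open members were ranked by mean signal rank over both libraries. Hist4h4, the only member on chromosome 6, had a signal of 11.2 in replicate 1 and 3.32 in replicate 2. Hist1h4i had 10.1 in replicate 1 and 3.88 in replicate 2, and Hist1h4c had 9.68 and 4.27 in the same order. These are high values for any gene of the genome. They stood at percentiles 95.0 to 97.5 of the protein-coding genes with a promoter peak in replicate 1, and 92.7 to 99.0 of those with one in replicate 2. Next came Hist2h4 with 6.54 in replicate 1 and 3.75 in replicate 2, Hist1h4d with 6.89 and 3.47, and Hist1h4a with 8.4 and 3.21. Hist1h4h, at 4.69 and 3.71, and Hist1h4k, at 6.25 and 2.45, were also among the 11 members that held the first 10 ranks, ties included, of which 8 were H4 genes.

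The other H4 genes were lower. Hist1h4b and Hist1h4f both had 3.32 in replicate 1 and had 2.09 and 2.06 in replicate 2, and Hist1h4j had 2.64 and 0.96 in the 2 libraries. Hist1h4m was the lowest open member by mean rank, with 0.934 in replicate 1 and 0.683 in replicate 2. Hist1h4n had 0.668 in replicate 2 and, in replicate 1, only a peak of the longer list, 0.434. Both lie in near-copied sequence, in which 95.8% and 96.7% of the 36-base words of the window occur more than once in the genome. The 36 bases around their GGTCCG were the same in both genes.

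Histone H3 forms the core tetramer with H4, and its tail carries many of the regulatory marks. The open H3 genes spread from 1.07 to 9.63 in replicate 1 and from 1.03 to 2.46 in replicate 2. Hist1h3b had 9.63 in replicate 1 and 2.0 in replicate 2, and Hist1h3e had 5.45 and 2.46, which placed both among the first ranks. Hist1h3b stood at percentile 95.0 of the genes with a promoter peak in replicate 1 but at 58.4 of those with one in replicate 2. Hist1h3i was among the 3 lowest open members, with 1.07 in both libraries. Hist1h3c, Hist1h3g, Hist1h3h, Hist1h3a and Hist1h3f were the other open H3 genes on chromosome 13. The peaks at Hist1h3f, of 1.42 and 1.4, were centred 486.5 and 431.5 bp after its start, near the edge of the window.

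H2A and H2B form the dimers that complete the nucleosome core, and most of their genes are arranged head to head, so that 1 stretch of DNA serves as promoter for both. Of 13 head-to-head pairs with starts at most 1000 bp apart, 12 joined an H2A and an H2B gene. Their starts lay 176 to 660 bp apart with a median of 268 bp, the widest spacing being that of Hist1h2bh and Hist1h3f. In 9 pairs both genes were open, and a single region found in both libraries lay at both promoters of each. The DNase signal there cannot be assigned to either gene. Hist1h2bq and Hist1h2ao, Hist1h2ap and Hist1h2br, and Hist1h2ba and Hist1h2aa were closed together, and in the Hist1h2bh and Hist1h3f pair the H3 gene alone was open.

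The strongest pair in replicate 1 was Hist1h2ad with Hist1h2bf, at 3.02 in replicate 1 and 1.85 in replicate 2. Hist1h2an with Hist1h2bp had 2.01 and 2.55, the highest of the pairs in replicate 2. The 26 genes in pairs had 19 open promoters, with medians of 2.01 and 1.7. Of the 41 others 33 were open, with medians of 3.63 and 1.69, so the difference in medians was present in replicate 1 and absent in replicate 2. Over all 36 H2A and H2B genes, 27 were open, at 0.985 to 7.57 in replicate 1 and 1.07 to 3.15 in replicate 2.

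The promoter between Hist1h2ac and Hist1h2bc is shown as an example of a shared one, since the region over it, chr13:23683861-23684300 with 2.54 in replicate 1 and 1.88 in replicate 2, covered the starts of both genes. Capitals mark the TATA box (TATAAA), the box read as CCAAT and the octamer, written ATTTGCAT, on either strand, in the 200 bases before the RefSeq start of Hist1h2ac.
Hist1h2ac, chr13:23683960-23684159, minus strand: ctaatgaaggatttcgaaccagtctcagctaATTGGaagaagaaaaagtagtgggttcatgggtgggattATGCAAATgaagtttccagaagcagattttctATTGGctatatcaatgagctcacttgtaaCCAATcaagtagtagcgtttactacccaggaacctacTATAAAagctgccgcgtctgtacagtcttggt

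These motifs differed between the classes. CCAAT, the box bound by NF-Y, was present in all 18 H2A, 16 H2B, 10 H3 and 6 H1 promoters with a RefSeq entry but in 3 of 12 H4 promoters, against 39.0% of all protein-coding promoters. The octamer ATTTGCAT, bound by the POU factor OCT1, was found in 7 H2A and 6 H2B promoters and in none of the other classes. This made 21.0% of members against 1.71% of all promoters. Hist1h2ah and Hist1h2bk share 1 octamer, as do Hist1h2ae and Hist1h2bg, and Hist1h2ba and Hist1h2aa, and each was counted for both genes. TATAAA, the letters of the TATA box that positions the polymerase, was in 35 of 62 members (56.5%) against 13.3%. Matches were taken on either strand and anywhere in the promoter sequence. Places were counted by gene, so 1 place in the shared promoter of a pair can count for both genes. The counts of places below are thus not all of distinct places. For example, the CCAAT place at -132 of Hist1h2an is the same as that at -112 of Hist1h2bp. The median positions of TATAAA were -30.5 in H1, -32.0 in H2A, -94.0 in H2B, -89.5 in H3 and -79.5 in H4, so a match need not be a working TATA box. Footprints overlapped 25.2% and 20.7% of 111 CCAAT places in open members, against 28.5% and 20.0% of 5936 such places in open promoters. At TATAAA the shares were 33.3% and 36.4% of 33 places in open members, against 20.9% and 14.2% of 569 places. Of the 10 octamer places in open members, counted by gene and so not all distinct, 0 and 2 had a footprint. The shares over all open promoters were 12.3% and 10.1% of 138 places, and 10 places are too few to tell these apart. A match is a description of the letters, and no binding was measured.

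Linker histone H1 binds the DNA between nucleosomes and compacts the fibre. Of its 6 genes, Hist1h1e had 5.01 in replicate 1 and 1.43 in replicate 2, Hist1h1c had 3.27 and 1.42, and Hist1h1a had 1.93 and 1.43. The spread among these genes in replicate 1 was not present in replicate 2. Hist1h1b was among the 3 lowest open members, with 1.26 and 0.503. Hist1h1d and Hist1h1t, the H1 variant of male germ cells, had no peak within 500 bp of their annotated starts in either library.

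Hist1h1d depends on the annotation. Its GENCODE start lies in sequence poor in CpG, with a ratio of 0.115, and its RefSeq start lies 1770 bp downstream. A region at chr13:23554901-23555140, with 2.19 in replicate 1 and 1.42 in replicate 2, covers the RefSeq start, so that with RefSeq starts, an alternative chosen after seeing the data, Hist1h1d was open and the count of open members was 53. The 200 bases before the RefSeq starts are given for Hist1h1e and Hist1h1d, which are open there, and for Hist1h1t, which is closed. They show which exact letters each holds: CCAAT is in all of them, and TATAAA is in Hist1h1e and Hist1h1d but not in Hist1h1t. After its CCAAT the Hist1h1t sequence reads TATATAAG, a near match that the exact search does not count, so it is not shown to lack a TATA box. Capitals mark the box read as CCAAT, the TATA box (TATAAA) and a long form of the AC box of H1 genes, AAACACAAA, on either strand. The exact letters AAACACAAA were in 1 of 6 H1 promoters, that of Hist1h1t, and in 0.629% of all promoters. The shorter AAACACA was not counted, and it stands unmarked in the Hist1h1e and Hist1h1d sequences, so the count does not show that these lack the box.
Hist1h1e, chr13:23622559-23622758, minus strand: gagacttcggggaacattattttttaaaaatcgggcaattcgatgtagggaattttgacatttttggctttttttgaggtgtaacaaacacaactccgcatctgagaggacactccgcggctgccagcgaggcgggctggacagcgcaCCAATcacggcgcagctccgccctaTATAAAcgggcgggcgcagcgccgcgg
Hist1h1d, chr13:23554832-23555031, plus strand: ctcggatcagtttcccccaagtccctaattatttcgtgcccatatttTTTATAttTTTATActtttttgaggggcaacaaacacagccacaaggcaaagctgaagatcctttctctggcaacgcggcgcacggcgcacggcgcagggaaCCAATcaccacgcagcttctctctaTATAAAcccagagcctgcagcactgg
Hist1h1t, chr13:23695611-23695810, plus strand: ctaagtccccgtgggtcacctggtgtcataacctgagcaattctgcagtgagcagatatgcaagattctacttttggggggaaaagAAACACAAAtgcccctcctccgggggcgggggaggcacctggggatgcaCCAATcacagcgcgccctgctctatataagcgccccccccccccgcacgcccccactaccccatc

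The 3 members known as testis histones, Hist1h1t, Hist1h2ba and Hist1h2aa, were all closed, and no base of their windows was listed at an FDR of 0.05 or less in either library. Little of their sequence is repeated, 0.0%, 16.5% and 3.73% of 36-base words. Hist1h2ba and Hist1h2aa form a head-to-head pair with starts 306 bp apart and CpG ratios of 0.681 and 0.649, and Hist1h1t has a ratio of 0.438.

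Of the other 8 closed members, 6 lay in sequence that is almost wholly copied elsewhere. Every 36-base word of the Hist1h2bq, Hist1h2ao, Hist1h2ap and Hist1h2br windows occurs more than once in the genome, and the RefSeq promoters of Hist1h2bq and Hist1h2br are identical. No base of these 4 windows was listed at an FDR of 0.05 or less. Hist2h3c1 and Hist2h3c2 had 96.3% repeated words each, and of both windows only 31 bases of Hist2h3c2 in replicate 2 were listed, down to an FDR of 0.0222. The remaining closed members were Hist1h1d, described above, and Hist1h2bh. The Hist1h2bh window had 27.1% repeated words and a peak of the longer list in replicate 2, of 0.885.

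Above 90% repeated words, 1 of 8 members was open, against 11 of 763 protein-coding genes (1.44%). At up to 90%, 51 of 59 members (86.4%) were open, against 56.1% of genes. With CpG ratios of 0.6 or more as well, the shares were 50 of 56 members (89.3%) and 87.3% of 10019 genes. Above 50% repeated words, 10 of 17 members were open, against 6.05% of 1471 genes. The median CpG ratios there were 0.926 in members and 0.167 in genes, and above 90% they were 0.913 and 0.182. These comparisons of repeated windows are thus not matched for CpG, and 0.167 lies in a decile where 9.43% of all genes were open. Whether reads that match several places were kept is not given in the sources used here, and the part of repeated sequence in the missing peaks was not tested.

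**Figure D3:**
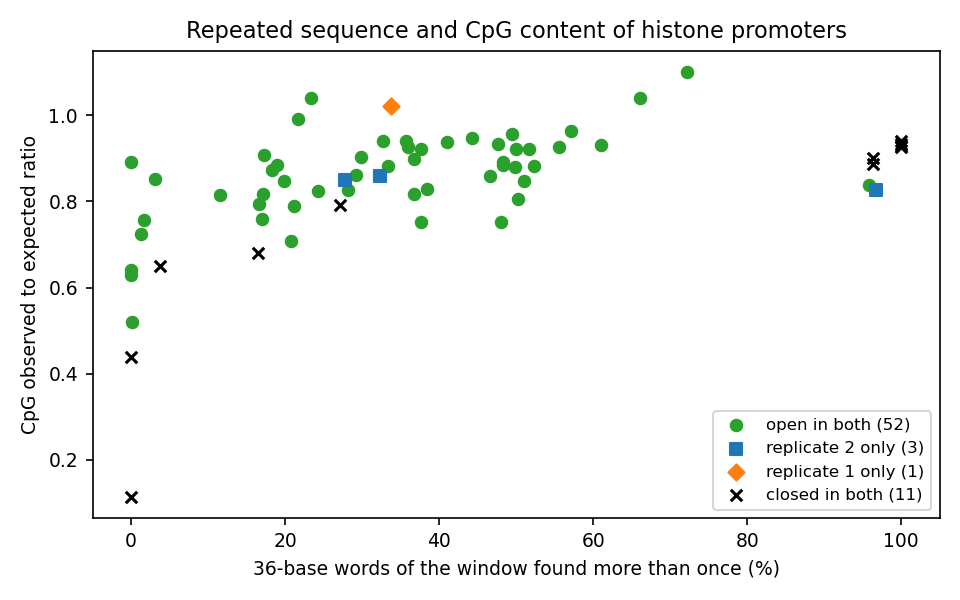
CpG observed to expected ratio against the percentage of 36-base words of the promoter window found more than once in the genome, for each of the 67 histone genes. Green circles are the 52 members open in both replicates, squares and diamonds those with a peak in 1 replicate and crosses the 11 closed in both; 6 crosses lie at 96.3% or more repeated words, and the Hist1h1d and Hist1h1t crosses lie at the lowest CpG ratios.

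The 4 members with a peak in 1 library each had a peak of the longer list in the other. Hist1h3d had 0.89 in replicate 1, and in replicate 2 a peak of the longer list, 0.998. Hist1h2af had 0.84 in replicate 2, against a longer-list peak of 1.07 in replicate 1, and Hist1h2ab had 0.795 and 0.772 in the same way. The values of Hist1h4n, 0.668 and 0.434, are given above. The lowest FDR in the library without a peak was 7.82e-04 at Hist1h3d, 0.00237 at Hist1h2af, 0.0177 at Hist1h2ab and 0.0228 at Hist1h4n. With the longer lists 56 members were open, against 59.7% of all genes.

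Outside chromosome 13, where 41 of 54 members were open, the histone genes lie in smaller groups. The cluster on chromosome 3, chr3:96219865-96270132, holds 10 members, of which 8 were open with medians of 3.5 and 1.56. Hist2h2aa2 was its highest gene in replicate 1, at 7.57 in replicate 1 and 3.15 in replicate 2, although 72.2% of its words are repeated. Its near copy Hist2h2aa1, with 66.1% repeated words, had highest values of 3.63 and 1.55, which came from separate regions. The region chr3:96245421-96245600 had 3.63 in replicate 1 and 1.23 in replicate 2, and chr3:96245081-96245380 had 2.76 and 1.55. How reads that match both copies were treated is not given, so the values of both genes are uncertain.

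Hist2h2bb had 4.72 in replicate 1 and 2.17 in replicate 2, and Hist2h3b had 3.37 and 1.05. The pair Hist2h2ac and Hist2h2be had 2.31 and 1.56. At Hist2h2ab the signal was 1.4 and 1.15, and the region there lay also at the promoter of Bola1, a gene of iron-sulphur metabolism. The pair of genes on chromosome 11 were both open: Hist3h2a had 2.68 in replicate 1 and 1.88 in replicate 2, and Hist3h2ba had 2.52 and 1.34. The Hist3h2a region lay also at the promoter of Trim17, a ubiquitin ligase gene, and these 2 were the only regions shared with the promoter of a protein-coding gene outside the family.

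Counted once, 46 distinct regions of both replicates lay at member promoters, of which 37 served 1 member and 9 served 2. Their median width was 260 bp (155 to 1160 bp), against 220 bp of all 37119 shared regions. Their median signals were 2.72 (replicate 1) and 1.6 (replicate 2), against 2.49 and 0.99 of all shared regions, at promoters or elsewhere. Among open promoters the direction was the reverse, with medians by gene of 2.54 and 1.69 in members against 4.3 and 1.8 in all protein-coding genes. A further 10 peaks at member promoters were found in 1 library alone.

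Footprints of both replicates that overlapped were found at 50 of the 67 members, against 51.3% of all genes. At a CpG ratio of 0.6 or more they were found at 50 of 64 members (78.1%), against 83.0% of 10083 genes, so that members then had the lower share. With windows of up to 90% repeated words as well, the direction was the reverse. They were then found at 49 of 56 members, against 8365 of 10019 genes, so the lower share depended on the near-copied windows. Of the open members 48 had one, and Hist2h2bb, Hist1h2bb, Hist1h3f and Hist1h3a were the 4 that had none. By class they were present at 12 of 13 H4, 14 of 18 H2A, 12 of 18 H2B, 8 of 12 H3 and 4 of 6 H1 genes. The median number of footprints per window was 4.0 (replicate 1) and 3.0 (replicate 2) for members, against 4.0 and 2.0 for all genes. At a CpG ratio of 0.6 or more the medians were 4.0 and 3.0 for members, against 6.0 and 5.0 for genes, so that members then had fewer. Among the 48 open members with a RefSeq promoter, 56.2% had a footprint base from -25 to -1 in replicate 1 and 43.8% in replicate 2, against 58.3% and 49.5% of 8854 open promoters. Further out, from -150 to -126, the shares were 25.0% and 35.4% in members and 37.7% and 30.2% in all.

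The regions between the members were not spread evenly. On chromosome 13 the members fall into a cluster of 23 genes, chr13:21715763-22043676, and a cluster of 31 genes, chr13:23531050-23934851. The first had 18 open members, with median signals of 2.01 and 1.5, and 19 regions of both replicates outside all member windows, 5.79 per 100 kb. The second had 23 open members, with medians of 3.27 and 1.85, and 11 such regions, 2.72 per 100 kb. The chromosome 3 cluster had 1, and the others had 0, which makes 31 regions of both replicates in all. In 1 library, single peaks were counted without joining those that overlap. The first chromosome 13 cluster then had 36 such peaks in replicate 1 and 24 in replicate 2, and the second had 12 and 11.

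The first chromosome 13 cluster also holds 31 transfer RNA genes, which RNA polymerase III transcribes, and 13 of its 19 regions between members lay within 200 bp of one. Signal at those 13 ranged from 1.41 to 9.0 in replicate 1 (median 2.91) and from 0.705 to 2.27 in replicate 2 (median 1.24). Of the 31 tRNA genes 13 (41.9%) had a region, against 218 of 430 (50.7%) over all chromosomes. The region between members with the highest signal in replicate 1, chr13:22028761-22028980, had 9.07 and 2.46 and lay in a noncoding transcript, Gm11292. Second in replicate 1 was chr13:22026421-22026640, with 9.0 and 1.88, which lay at the promoter of that transcript and within 200 bp of a tRNA gene. The highest in replicate 2, chr13:21974281-21974460, had 7.58 in replicate 1 and 2.66 in replicate 2 and lay neither at a tRNA gene nor at a promoter. Regions at the promoters of Zfp184, Pom121l2 and the microRNA gene Mir1983 were also among the 19, and 4 lay neither at a tRNA gene nor at another promoter.

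In the second cluster no region between members lay at another promoter by GENCODE starts. Signals there ranged from 0.779 to 5.35 in replicate 1 and from 0.36 to 2.33 in replicate 2. Of the 11, 7 overlapped an annotated transcript of a member, and chr13:23697481-23697650 did so only at the edge of Hist1h4c. The region over the RefSeq start of Hist1h1d, described above, is counted among these 7, although by RefSeq it lies at a histone promoter. The highest in replicate 1, chr13:23598081-23598260, with 5.35 and 1.34, was 1 of 3 within a long annotated transcript of Hist1h2be. The highest in replicate 2 lay within Hist1h1c, 813 bp from its start, with 2.65 and 2.33. Over all clusters 6 of the 31 regions lay within 1000 bp of a member start.

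**Figure D4:**
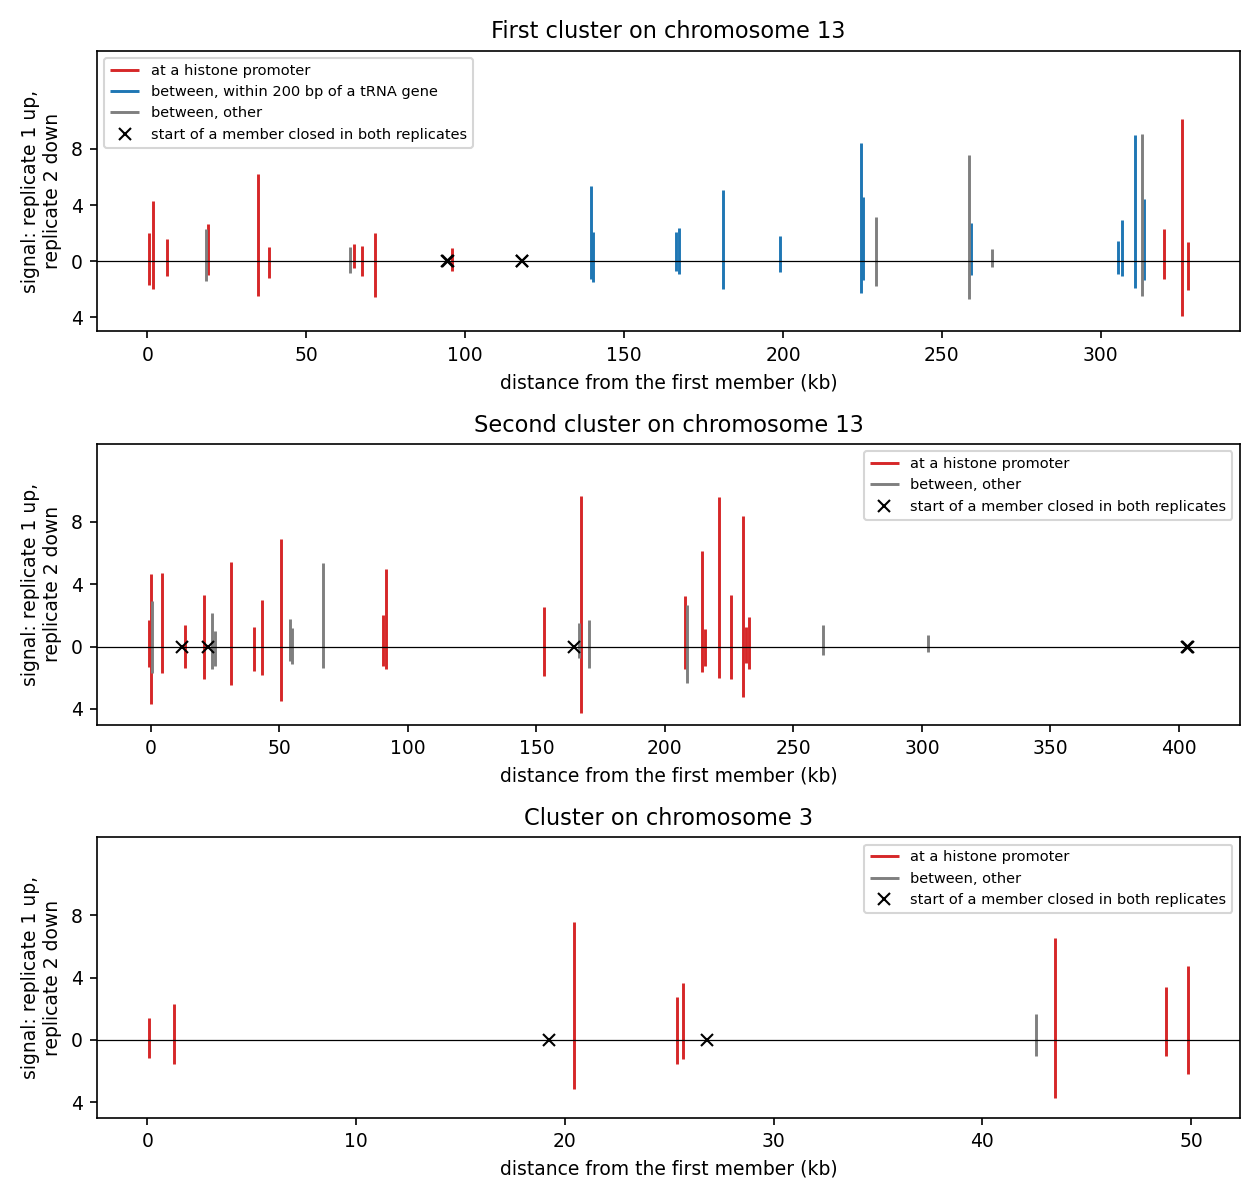
Signal of each region of both replicates along the 2 clusters of chromosome 13 and the cluster of chromosome 3, by distance in kb from the first member; replicate 1 is drawn upward and replicate 2 downward. Red lines are at histone promoters, blue lines lie within 200 bp of a tRNA gene, grey lines are other regions between members, and crosses are members closed in both replicates; the blue lines fill the middle of the first cluster, where 13 regions lie at tRNA genes.

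The libraries ranked the 46 promoter regions alike, with a Spearman correlation of 0.745 across regions, which share the 2 libraries and are no replicates. Replicate 1 had the higher signal at 41 of them and replicate 2 at 5, whereas over all 37119 shared regions replicate 1 was higher at 96.5%. By gene, replicate 1 was higher at 43 of 52 open members, against 99.4% of 11890 open genes, and replicate 2 was higher at 9 of 52, against 0.606% of open genes. The median ratio of replicate 1 to replicate 2 was 1.62 in members and 2.37 in all open genes. By class the median ratio was 2.41 in H1, 2.21 in H3 and 2.13 in H4, and 1.41 in H2B and 1.35 in H2A.

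All 9 members with the higher signal in replicate 2 were H2A or H2B genes, of 27 open ones. The pair Hist1h2ag and Hist1h2bj had 1.36 in replicate 1 and 2.06 in replicate 2, and the pair Hist1h2ae and Hist1h2bg had 1.24 and 1.58. The pair Hist1h2ak and Hist1h2bn had 0.985 and 1.18, and Hist1h2bb, a single gene, had 1.1 and 1.21. With Hist1h2an and Hist1h2bp, given above, these are 5 regions. Their windows had 33.4% to 57.1% repeated words. Among protein-coding genes with more than 50% repeated words the median ratio was 1.74, and replicate 1 was higher at 78 of 89 open ones. Among members with up to 50% it was 1.62, with replicate 1 higher at 35 of 42. The part of repeated sequence in these ratios was not tested, and the depths of the libraries are unknown.

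**Figure D5:**
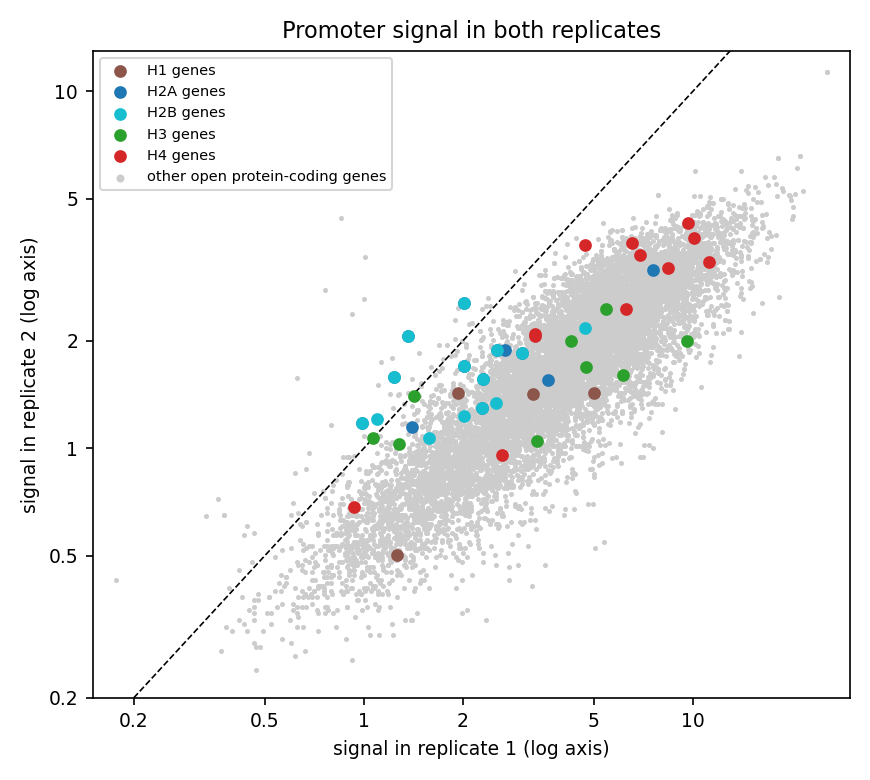
Promoter signal in replicate 2 against replicate 1 (both axes logarithmic, deposited units) for the open histone genes, coloured by class, and for all other open protein-coding genes in grey; the dashed line marks equal signal. Of the 52 histone genes, 9 lie above the line, all of them H2A or H2B genes that hold 5 regions, whereas 0.606% of all open genes do.

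The listed genes of the pathway outside the family were all open. Their sets have median CpG ratios of 0.787 to 0.845, in deciles where 88.0% to 91.1% of all protein-coding genes were open, so these counts are near the share of all genes. All 11 replication-independent histone variant genes were open, with medians of 5.87 and 2.35. H2afv, which encodes a form of H2A.Z, had 11.4 in replicate 1 and 3.59 in replicate 2, H3f3a had 5.87 and 1.95, and Cenpa, the centromeric H3, had 2.1 and 2.24. All 17 factors of histone transcription and histone mRNA processing were open as well, with medians of 5.24 and 2.34. Npat had 9.42 and 3.51, Hinfp had 5.82 and 2.87, and Slbp, which binds the stem-loop, had 4.19 and 2.34. All 21 listed genes of DNA replication and proliferation were open, with medians of 4.79 and 2.06. No RNA was measured, so whether any of these genes is transcribed in this tissue is not known from these data.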

How the data were processed

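DNase-seq was measured in 2 libraries of 1 group. The authors deposited per library 2 peak lists with a signal value per peak, a footprint list at a false discovery rate (FDR, the expected share of false calls) of 0.01 and the cut rate per stretch of bases, deposited as FDR in place of a p-value. The deposited signal values were used as given, and how they were scaled, aligned or called is not given in the sources used here. Each file came from 1 library, per the deposited description, on mm10, per the labels. The shorter peak list was used. Each of its peaks on the members' chromosomes holds a base at an FDR of 0.001 or less, and each of the longer list 1 at 0.05 or less. No file used gives counts, so depth is unknown and no counting interval is given. Other deposited files were not used here.

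Starts came from GENCODE M21, and promoter sequences from RefSeq, both on GRCm38.p6; 62 of 67 members matched, the others being Hist1h3f, Hist1h2bc, Hist1h3a, Hist2h2be and Hist2h4. Peaks of both libraries that overlap by 1 bp or more were joined into shared regions. Clusters are runs of members with gaps of at most 200 kb. Repeated words are 36-base words found more than once in the genome on either strand. Computation used pandas 2.3.3, numpy 2.4.6, numba 0.67.0 and scipy 1.17.1 under Python 3.11.15. The steps were tested on simulated data, and were checked with bedtools 2.31.1, which gave the same 53 and 55 members with a peak.

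Named in full are the 10 highest by mean signal rank, all H1 genes, all outside chromosome 13, the germ-cell genes, the 3 lowest open members and all not open in both libraries; other values are examples. The members, lists and rules were chosen with earlier results of these data known.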

Additional observations from a re-analysis of the deposited data

How the results depend on the processing

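No paired analysis was possible because 1 group of 2 libraries allows no test. Of 67 members, 52 were open. The count was 56 with the longer lists, 51 and 62 with windows of 250 and 2000 bp, 48 with an overlap of 50% of the shorter peak, 39 with the stronger 50% of each list and 53 with RefSeq starts, an alternative chosen after seeing the data; it was 52 with the outermost or the basic starts. Each library alone gave 53 to 55 open members and 56 members with a footprint (50 in both). It gave 55 to 61 peaks at promoters (46 joined regions in both) and 36 to 51 peaks between members (31 joined regions in both). Overlapping peaks of 1 library were not joined, so these counts are of unlike units. Regions between members numbered 40 with the longer lists, 21 with the stronger peaks and 29 with RefSeq starts. The median signal in replicate 1, 2.54, was 3.32 with a window of 2000 bp and 3.32 with the stronger peaks. The cause of the first was not tested, and the second setting removes low values by construction. In replicate 2 it stayed between 1.59 and 1.88. Footprints have no second list or strength, so those alternatives gave no value for them. Unknown depth limits what a missing peak shows.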
